A study of Mus musculus with 4 samples.

Results

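The small Smgc/Tff2 barcodes of mouse gingiva are droplets with little RNA in which the RNAs of the gland products Smgc and Tff2 outnumber those of the basal keratins Krt5 and Krt14. They were chosen by measured values. A barcode was a member with at least 200 genes, at most 20% mitochondrial UMIs (molecular barcodes, by which each RNA copy is counted once), fewer than 3000 UMIs in all, at least 3 UMIs of Smgc plus Tff2, less than 10% of UMIs from Dcpp1, Dcpp2, Dcpp3 and Bpifa2, and fewer UMIs of Krt5 plus Krt14 than of Smgc plus Tff2. This rule found 1268 of the 7134 barcodes that passed the limits on genes and mitochondrial UMIs, from 8295 deposited. All levels of the genes in this rule, Krt5, Krt14, the Dcpp genes and Bpifa2 included, and of genes that vary with them are therefore descriptions of a chosen set.

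The study measured single-cell RNA in gingiva, the gum around the teeth, to see how metformin, a glucose-lowering drug, bears on the prevention of periodontal disease. The 4 groups were a disease sample treated with metformin, a disease sample, a sample with metformin treatment alone, and a healthy sample, with 1 library each. The tissue of every group was the gingival neck of the upper jaw, excised, digested with collagenase II and DNase I and strained to single cells. The strain, age and number of the mice, how the disease arose, and the metformin dose and schedule are not given in the sources used here. With 1 library per group no test was made. All intervals are 95% intervals, cover counting error only and treat UMIs as independent draws, so differences between mice, tissue pieces and libraries cannot be told apart from those of disease or metformin. In such data fewer producing cells and less RNA per cell also cannot be told apart.

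Minor salivary glands lie under the oral mucosa, and their mucous cells fill granules with mucins and small partner proteins that lubricate and protect the surface. Tff2 is a trefoil peptide secreted together with mucins, Muc5b and Muc19 are gel-forming mucins, and Smgc is a secreted protein first known from newborn rodent submandibular glands that comes from the same locus as Muc19 by alternative splicing. Agr2 is a disulfide isomerase needed for mucin folding, and Spdef is a transcription factor of mucous cells. Serous cells of the same glands make other secretions, in mice among them the Dcpp proteins and Bpifa2.

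The promoters of Smgc and Olfm4 are shown because these were the class markers whose levels differed most between libraries. They are RefSeq sequences of build GRCm38.p6, 300 bases each, read on the + strand from 250 bases before to 50 bases after the RefSeq start. Smgc is at chr15:91838078-91838377 and Olfm4 at chr14:80000052-80000351. Capitals mark a TATA box (TATAAA) in Smgc and overlapping matches to the NF-kB consensus, found on both strands, in Olfm4.
Smgc: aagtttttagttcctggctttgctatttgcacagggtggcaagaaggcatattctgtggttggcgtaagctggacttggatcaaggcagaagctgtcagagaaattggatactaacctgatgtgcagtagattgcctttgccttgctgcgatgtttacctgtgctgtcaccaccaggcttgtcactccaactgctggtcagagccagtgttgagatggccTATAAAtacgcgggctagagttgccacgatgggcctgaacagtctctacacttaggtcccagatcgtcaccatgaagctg
Olfm4: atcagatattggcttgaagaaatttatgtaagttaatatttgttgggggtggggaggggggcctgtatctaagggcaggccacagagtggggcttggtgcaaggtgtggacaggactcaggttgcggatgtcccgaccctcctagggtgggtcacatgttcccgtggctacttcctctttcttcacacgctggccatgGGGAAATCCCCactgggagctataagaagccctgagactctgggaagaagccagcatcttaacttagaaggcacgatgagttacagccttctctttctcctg
The TATA box of Smgc begins 30 bases before the RefSeq start. Searched on both strands, TATAAA was present in 4472 of 32841 promoters of this length (13.6%), and the NF-kB consensus in 1480 (4.51%). A match describes the letters and not a bound site. In the GENCODE annotation of GRCm38, Smgc and Muc19 lie on chromosome 15 on the + strand and overlap, with starts at 91838265 and 91838326. That start of Smgc lies before the TATA box, and the GENCODE start of Olfm4, 79984081, lies before the region shown. How the authors' counting divided reads between Smgc and Muc19 is not given in the sources used here, so their separate levels are uncertain.

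The members were shallow. Their median was 783 UMIs and 394 genes, against 13138.5 UMIs and 3126.5 genes in the 1104 larger barcodes that met the same conditions with 3000 UMIs or more. The larger barcodes were themselves mixed. Smgc plus Tff2 made up 1.22% of their UMIs at the lower quartile and 0.098% at the 10th percentile. Erythroid genes summed to 21885 CPM (counts per 1000000 UMIs) there and to 640 CPM in the members. Levels in the larger barcodes are therefore not those of gland cells alone. The members held 17.8% of the kept barcodes but 2.38% of their UMIs. A single locus, Gm42418, which overlaps ribosomal RNA repeats, took 95376 CPM in the members and 36815 CPM in the larger barcodes. Cmss1 and Camk1d followed the same pattern, at 7395 and 5212 CPM in the members and 1249 and 1325 CPM in the larger barcodes. Malat1, a nuclear RNA, was at 0 in 238 members (18.8%), and 320 members (25.2%) had no mitochondrial UMI. Of kept barcodes, 8 shared their sequence with a barcode of another library, 2 of these were members, and no sequence was a member in more than 1 library. No doublet caller was run, and no doublets were removed.

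Mucous secretory RNAs were among the highest of the profile, with other genes between them. Gm42418 was the highest of all, and Malat1 was at 17903 CPM. Dcpp1, a serous gene, was at 8677 CPM, and Cmss1 and the ribosomal protein gene Rpl41 were at 7395 and 6533 CPM. Over all members Tff2 was at 52791 CPM, Muc5b at 44713, Bpifb2, a BPI-fold protein, at 14502, Agr2 at 5802, Nupr1, a small stress-response protein, at 5413, Gp2, a glycoprotein of secretory granules, at 4897 and Wfdc2, a small antiprotease-like protein, at 4701 CPM. All 7 were higher in the larger barcodes, at 83458, 66596, 25189, 11419, 10945, 6797 and 8855 CPM in the same order. In kept barcodes that met neither this rule nor those of the larger, serous-type or Spink4 barcodes, they were at 420.02 CPM for Tff2 and at 575 CPM or less for the others. The remaining class markers were also found. Olfm4, a secreted glycoprotein of epithelial progenitors and secretory cells, was at 1242 CPM, Cldn10, a tight-junction protein of secretory epithelium, at 661 CPM, Aqp5, the water channel of salivary acini, at 645 CPM, and Lrrc26, a subunit of the BK potassium channel, at 326 CPM. Of 22 mucous secretion genes in the matrix, 20 had at least 1 UMI, and Bpifb5 and Zg16 had none.

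The data went in part against the label of gland cells. By the ratio of member level to that of all other kept barcodes, genes of capillary endothelium were among the highest. Gpihbp1 was 13.8 times higher in the members, from 62 UMIs in 15 members, Fabp4 6.44 times and Flt1, a VEGF receptor, 6.06 times. Gatm was at 9.17 times, and Cmss1, found in 95.7% of members, at 6.10 times. Tff2 was 1.49 times higher, but the other kept barcodes include the larger ones, which held 83458 CPM of it. Only 43 of 1268 members had an Fabp4 UMI. Pooled Fabp4 was at 246 CPM without the disease library and at 460.5 CPM with it. The set is therefore called by its rule here.

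Members covered a wide range in the share of Smgc plus Tff2. In 472 members these genes made up 5% or more of the UMIs, in 592 members 1% to under 5%, and in 204 members under 1%. At 5% and over, Muc5b, Bpifb2, Agr2, Gp2 and Wfdc2 made up a median of 9.48% of UMIs, Olfm4 was at 2384 CPM, Aqp5 at 1163 and Cldn10 at 1194 CPM. Only 1 of these 472 barcodes held 3 UMIs of the endothelial list, 1 of the fibroblast list and 1 of the leukocyte list, whereas 161 held 3 UMIs of the keratinocyte list. Below 1%, the same mucous products made up a median of 0.32%, Olfm4 was at 85.8 CPM and Aqp5 at 65.2 CPM. Of those 204 barcodes, 33 had at least 3 endothelial UMIs, 43 fibroblast, 30 leukocyte and 95 keratinocyte UMIs. Fabp4 was at 1881 CPM there and at 23.3 CPM at 5% and over.

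Every member had at least 2 Tff2 UMIs. Tff2 and Smgc were found together in 823 members and Tff2 without Smgc in 445, and no member had Smgc alone. The members without Smgc had a median of 735 UMIs, those with it 815. Olfm4 was at 489 CPM in members without Smgc and at 1619 CPM in those with it, and Nupr1 was at 2589 and 6827 CPM in the same order. The 2 subsets also differed in Tff2, at 20256 and 69078 CPM, and in library. From disease plus metformin came 58 of the 445 without Smgc and 326 of the 823 with it.

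Gland RNA was also present in barcodes of other cell types. Keratin barcodes here are the 3230 with at least 10 Krt5 plus Krt14 UMIs that were not members, larger Smgc/Tff2 or serous-type barcodes. Of these, 78.3% had a Tff2 UMI at a median depth of 1906.5 UMIs, and 35.5% reached 3 UMIs of Smgc plus Tff2. Thinned to 500 UMIs, 89.0% of the members and 10.0% of the keratin barcodes reached 3. The rule chose members by these same UMIs, so this contrast is a description only. Class markers outside the rule were also found more often in members, which is again a description, since they vary with the genes of the rule. Per Tff2 UMI, Olfm4 UMIs were 0.0235 in members and 0.0275 in keratin barcodes. After thinning, Olfm4 was found in 34.5% of members and 2.07% of keratin barcodes, Aqp5 in 24.4% and 1.05%, Cldn10 in 26.0% and 1.11%, and Lrrc26 in 14.2% and 0.495%. At the lower limit, the 75 members with exactly 3 Smgc plus Tff2 UMIs had a median of 1493 UMIs and 0.21% mucous products, and the 95 barcodes with 2 that met the other conditions had 1087 UMIs and 0.16%. At the upper limit, 52 members with 2500 UMIs or more had 2.51% mucous products, and the 47 barcodes just above 3000 UMIs had 4.57%.

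The number of members differed between the libraries. They were 384 of 1657 kept barcodes in disease plus metformin (23.2%, interval 21.2% to 25.3%), 107 of 1693 in disease (6.32%, 5.21% to 7.59%), 573 of 2477 in metformin (23.1%, 21.5% to 24.8%) and 204 of 1307 in healthy gingiva (15.6%, 13.7% to 17.7%). Disease had the lowest share and both metformin libraries the highest, with overlapping intervals between these 2. As log2 ratios of the shares, disease over healthy was -1.30 (-1.66 to -0.96), metformin over healthy 0.57 (0.33 to 0.81), disease plus metformin over disease 1.87 (1.56 to 2.20), and disease plus metformin over metformin 0.0026 (-0.19 to 0.19). The shares rest on the cut at 3000 UMIs and on Smgc and Tff2, whose levels differed between libraries. Larger barcodes numbered 375 (22.6% of kept) in disease plus metformin, 224 (13.2%) in disease, 257 (10.4%) in metformin and 248 (19.0%) in healthy gingiva. Thus metformin had the lowest share of larger barcodes and disease the lowest share of members. Members with no squamous keratin UMI numbered 163 in disease plus metformin, 45 in metformin and 62 in healthy gingiva. With only these counted as members, still over all kept barcodes, metformin over healthy turned to -1.38 and disease plus metformin over metformin to 2.44. Shares among all barcodes without such UMIs were not computed.

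**Figure D1:**
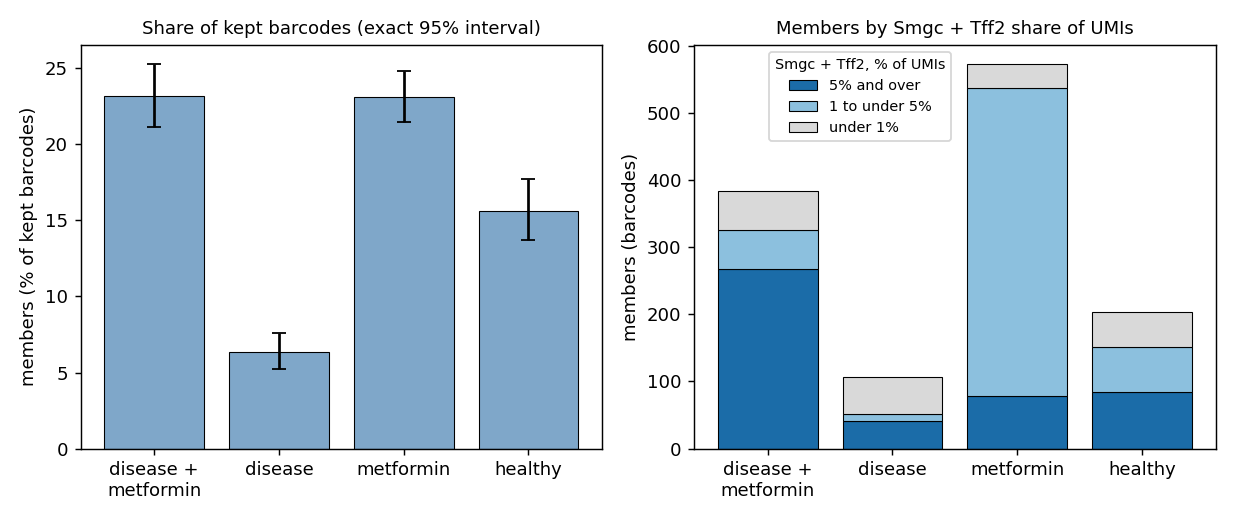
Members by library: left, members as % of kept barcodes with exact 95% intervals. Right, number of members by the share of Smgc plus Tff2 in their UMIs. Members of 5% and over dominate disease plus metformin (268 of 384), those of 1% to under 5% dominate metformin (458 of 573), and those under 1% are the largest part in disease (56 of 107).

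The make-up of the members also differed. Members with 5% or more Smgc plus Tff2 were 268 of 384 in disease plus metformin (69.8%), 41 of 107 in disease (38.3%), 79 of 573 in metformin (13.8%) and 84 of 204 in healthy gingiva (41.2%). Members under 1% were 59 (15.4%), 56 (52.3%), 36 (6.28%) and 53 (26.0%) in the same order. The disease set was thus split between barcodes rich in gland RNA and barcodes with little of it, and the metformin set sat between these ends. As many as 489 of 573 metformin members held 3 UMIs of the keratinocyte list, against 93 of 204 in healthy gingiva.

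Smgc stood out among the class markers. It was at 4220.5 CPM (interval 4022 to 4426) in disease plus metformin, 1135 CPM (961 to 1330.1) in disease, 1299 CPM (1206 to 1398) in metformin and 2871 CPM (2655 to 3101) in healthy gingiva. Disease alone and metformin alone were both below healthy, with log2 ratios of -1.34 (-1.60 to -1.08) and -1.14 (-1.30 to -0.99). Disease plus metformin was above each of them, by 1.90 (1.65 to 2.14) over disease and 1.70 (1.57 to 1.83) over metformin. Larger barcodes had the same directions, at 5564 CPM in disease plus metformin, 1859 in disease, 1744 in metformin and 4515 CPM in healthy gingiva. Per Tff2 UMI, which does not depend on the other RNA in a barcode, members had 0.0599 Smgc UMIs in disease plus metformin, 0.0223 in disease, 0.0329 in metformin and 0.0523 in healthy gingiva. The larger barcodes had 0.0567, 0.0218, 0.0268 and 0.0534. Keratin barcodes outside the members, with little Smgc, had 0.0616, 0.0375, 0.0374 and 0.0620 in the same order. The difference between libraries was therefore not particular to the members. Per UMI of Muc19, its partner at the locus, members had 2.18 Smgc UMIs in disease plus metformin, 0.840 in disease, 1.02 in metformin and 1.35 in healthy gingiva.

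Olfm4 behaved otherwise, with its highest levels in both metformin libraries. It was at 2257 CPM (2113 to 2409) in disease plus metformin, 433 CPM (329 to 559.7) in disease, 998 CPM (916 to 1085) in metformin and 509.6 CPM (421 to 612) in healthy gingiva. The log2 ratio was 2.38 (2.00 to 2.79) for disease plus metformin over disease and 0.97 (0.68 to 1.27) for metformin over healthy, whereas disease over healthy, at -0.24 (-0.72 to 0.23), had an interval that holds 0. Larger barcodes had 2330.5, 771, 1204 and 564 CPM in the same order of libraries, and there disease was above healthy by 0.45. Olfm4 was found in 63.8% of disease plus metformin members, 20.6% of disease, 43.8% of metformin and 23.5% of healthy members at median depths of 807, 984, 732 and 806.5 UMIs. In the keratin barcodes of these libraries, at median depths of 1781, 1710, 2595.5 and 1563 UMIs, it was found in 12.7%, 2.16%, 10.8% and 2.97%.

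Aqp5 was at 742 CPM in disease plus metformin, 635 in disease, 582 in metformin and 634 CPM in healthy gingiva, and Cldn10 at 789, 739, 576 and 594 CPM. Their log2 ratios lay between -0.12 and 0.45 in all 4 comparisons. Without members under 1% Smgc plus Tff2 they spread further: disease over healthy was 0.76 for Aqp5 and 1.01 for Cldn10, and disease plus metformin over disease -0.77 and -0.85. The same ratios were 0.19 and 0.19, and 0.20 and 0.20, in the larger barcodes. Lrrc26 was at 411 CPM in disease plus metformin, 187 in disease, 247 in metformin and 452 CPM in healthy gingiva, so that both single conditions were below healthy, by -1.28 and -0.87. In the larger barcodes these ratios were -0.28 and -0.10. Tff2, used in the rule, was at 70402 CPM in disease plus metformin, 50837 in disease, 39548 in metformin and 54880 CPM in healthy members.

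**Figure D2:**
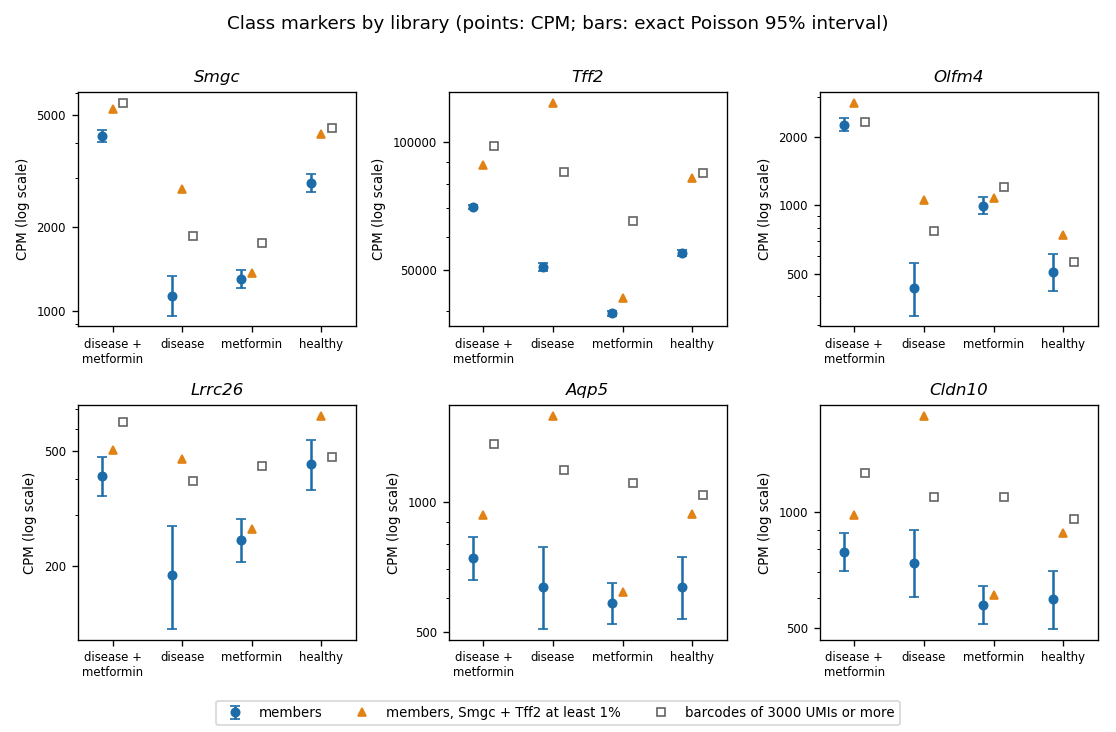
Level of the 6 class markers in CPM on a log scale, by library, in members (circles, exact Poisson 95% interval), members with at least 1% Smgc plus Tff2 (triangles) and barcodes of 3000 UMIs or more (squares). Smgc is lowest in disease and metformin in all 3 sets, and Olfm4 is highest in disease plus metformin in all 3.

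Disease over healthy was the comparison with the fewest members, 107 and 204. Single mucous products differed in both directions. Muc5b was at 19857 CPM in disease and 52912 CPM in healthy members (log2 ratio -1.41, -1.48 to -1.35), and Nupr1 at 2307 CPM in disease and 8065 CPM in healthy members (-1.81, -1.98 to -1.63). In the larger barcodes Nupr1 kept a ratio of -1.29, but Muc5b was at 68066 CPM in disease and 69433 CPM in healthy gingiva (-0.03). Bpifb2 was at 11257 CPM in disease and 17033 CPM in healthy members (-0.60), but at 0.13 without members under 1% Smgc plus Tff2. Agr2 was at 5733 CPM in disease and 4422 CPM in healthy members (0.37), and Wfdc2 at 4106 and 3385 CPM (0.28). Without members under 1% the ratios of Agr2 and Wfdc2 were 1.10 and 1.05, and that of Muc5b was -0.71. Wfdc12, a whey acidic protein of the antiprotease family, was at 2179.8 CPM in disease and 753 CPM in healthy members (1.53, 1.26 to 1.81), and at 3728 and 1899 CPM in the larger barcodes.

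Of 2479 genes measured (at least 20 UMIs over both libraries), 12.5% were at least 2-fold higher and 7.46% at least 2-fold lower in disease than in healthy members, and the median log2 ratio of all was 0.16. Against this, 0 of 6 class markers were 2-fold higher and 2 were lower, Smgc and Lrrc26. Of 12 mucous secretion genes measured, 1 was higher, 3 were lower and the median was -0.48. The lower ones were Muc5b, Spdef and Ern2, an endoplasmic reticulum stress sensor of mucous cells, and the one higher was Bpifb1, which was found in 1 disease member. Mucin glycosylation genes, which build mucin sugars, numbered 1 higher and 2 lower of 13, and their median was -0.59. Both medians had the other sign without members under 1% Smgc plus Tff2, at 0.25 and 0.06, and in the larger barcodes, at 0.21 and 0.17. The sulfotransferase Chst4 was among the lower ones, at 82.1 CPM in disease and 266 CPM in healthy members. Transport and folding genes of the secretory pathway had 0 of 38 higher and 1 lower, with a median of -0.09. Sox9, a transcription factor of gland progenitors, was at 37.3 CPM in disease and 208 CPM in healthy members (-2.48, -4.17 to -1.16). Etv1, an ETS factor, was at 202 CPM in disease and 594 CPM in healthy members (-1.56). Pigr, which carries IgA across the epithelium, was at 314 CPM in disease and 807 CPM in healthy members (-1.36). In the larger barcodes the ratios of these 3 genes were -0.16, -0.68 and -0.29.

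Endothelial and leukocyte genes were high in the disease members, and their part in the gland levels was not tested. Endothelial markers had 7 of 8 measured genes 2-fold higher, with all 10 list genes summing to 1702 CPM in disease and 469.7 CPM in healthy members. Leukocyte markers had 4 of 5 higher, summing to 10638 CPM in disease and 767 CPM in healthy members, from 9 of 107 disease members and 5 of 204 healthy members with at least 3 such UMIs. S100a9, a neutrophil alarmin, was at 6256 CPM in disease and 159.5 CPM in healthy members, and its UMIs came from 4 disease and 2 healthy members. The chemokine Cxcl2 and the cytokine Il1b, both NF-kB targets, were at 3621 and 1344 CPM in disease and at 35.4 and 111 CPM in healthy members, each from 5 disease members and 1 healthy member. With members under 1% Smgc plus Tff2 left out, S100a9, Cxcl2 and Il1b were at 0 in the disease members. Keratinocyte genes had 0 of 12 higher and 6 lower, with a median of -1.04, and fibroblast genes 1 of 5 higher and 3 lower. Their sums were 8891 and 1388 CPM in disease and 10989 and 1418 CPM in healthy members. Vim, a filament of mesenchymal cells, Fxyd5, a membrane protein, Mcl1, a survival protein, and Id3, an inhibitor of transcription factors, were among the 6 highest genes, with log2 ratios of 1.84, 2.26, 2.04 and 2.52. Without the members under 1%, Vim and Mcl1 were at -1.11 and -2.11, and Id3 and Fxyd5 had too few UMIs for a ratio. B2m, the light chain of class I molecules, was at 508 CPM in disease and 142 CPM in healthy members (1.84) and stayed at 1.47 without those members, but was at 0.31 in the larger barcodes.

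The serous products Dcpp1 and Dcpp2 were nearly missing from the disease members. The whole serous list summed to 2620 CPM in disease and 14583 CPM in healthy members. Of its 7 measured genes, 1 was at least 2-fold higher and 6 were at least 2-fold lower in disease. Dcpp1 was at 37.3 CPM in disease and 4582 CPM in healthy members (log2 ratio -6.94, -8.57 to -5.71), and Dcpp2 at 22.4 and 1892 CPM. Dmbt1, a scavenger receptor of saliva, had no UMI in disease members and was at 629 CPM in healthy members. Serous-type barcodes, defined by at least 10% Dcpp and Bpifa2 UMIs, numbered 3 in the disease library and 52 in the healthy library. In the larger Smgc/Tff2 barcodes Dcpp1 was at 84.0 CPM in disease and 565 CPM in healthy gingiva.

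**Figure D3:**
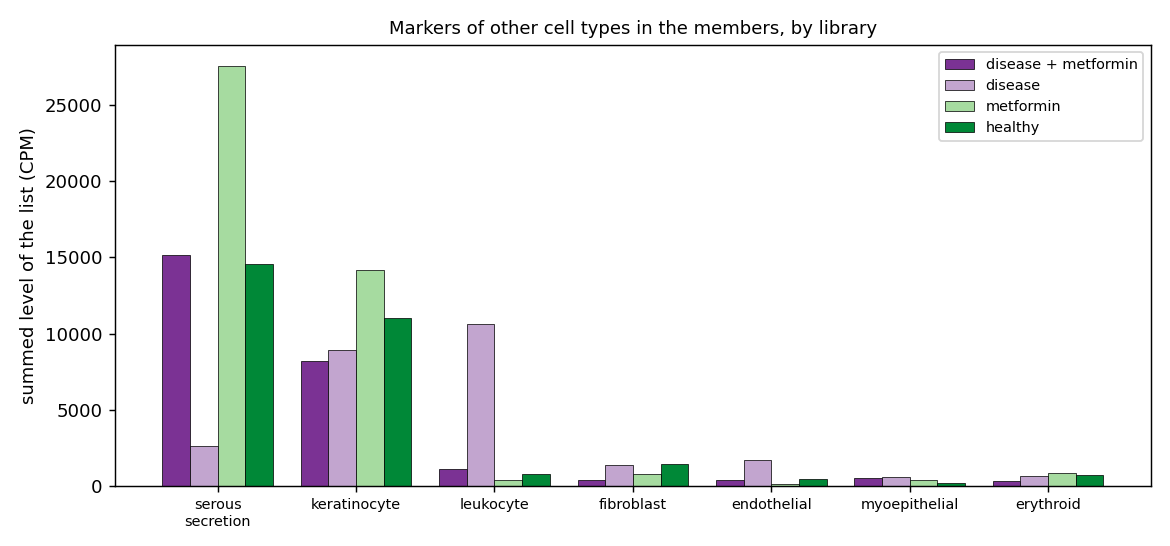
Summed level of marker lists of other cell types in the members, in CPM, by library (bars; no error is shown). Serous genes are highest in metformin (27591 CPM) and lowest in disease (2620.2 CPM), keratinocyte genes highest in metformin (14201 CPM), and leukocyte genes highest in disease (10638 CPM).

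Metformin over healthy was marked by keratins and serous products. Of the genes given here, Krt5, Krt14, Dcpp1 and Dcpp2 are in the rule, which limits their levels in members. Krt14 was at 4467 CPM in metformin and 1094 CPM in healthy members (log2 ratio 2.03, 1.84 to 2.22), and Krt17, a keratin of wounded and appendage epithelium, at 634 CPM in metformin and 35.4 CPM in healthy members (4.16, 3.17 to 5.38). Krt6a and Krt16, keratins of activated epithelium, were higher by 1.63 and 1.55. Soft-mucosa keratins were lower, with Krt13 at 1825 CPM in metformin and 3882 CPM in healthy members and Krt4 at 523 CPM in metformin and 1972 CPM in healthy members. In the larger barcodes Krt13 and Krt4 had ratios of 0.36 and 0.12. The ratio of Krt5 to Krt14 UMIs was 0.353 in metformin members and 0.369 in the keratin barcodes of the same library. Members and keratin barcodes had 0.474 and 0.408 in healthy gingiva, 0.5 and 0.352 in disease, and 0.327 and 0.307 in disease plus metformin. Dcpp1 was at 13545 CPM in metformin and 4582 CPM in healthy members (1.56, 1.47 to 1.66), and Dcpp2 at 6268 and 1892 CPM (1.73). Serous-type barcodes numbered 194 in the metformin library and 52 in the healthy library, and how far their RNA entered the members was not tested.

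Of 4391 genes measured, 6.58% were at least 2-fold higher and 7.95% at least 2-fold lower in metformin than in healthy members, with a median of -0.04. Keratinocyte genes had 8 of 17 higher and 2 lower, and serous genes 4 of 9 higher and 0 lower. Cell cycle genes had 7 of 10 higher and 0 lower, with a median of 1.37, and Ccnd1, a G1 cyclin, was at 174 CPM in metformin and 53.2 CPM in healthy members. Hmgb2, a chromatin protein of dividing cells, was at 239.9 CPM in metformin and 57.6 CPM in healthy members. In the larger barcodes 12 of 19 cell cycle genes were 2-fold higher. Mucous secretion genes had 0 of 13 higher and 1 lower, the one lower being Fcgbp, a mucus protein that binds IgG Fc. Other products differed less. Agr2 was at 6174 CPM in metformin and 4422 CPM in healthy members (0.48), Wfdc2 at 4569 and 3385 CPM (0.43), and Muc5b at 39428 and 52912 CPM (-0.42). Spink4, a small protease inhibitor of mucous cells, was at 385 CPM in metformin and 199 CPM in healthy members (0.95, 0.48 to 1.45), and at 1380 and 449.6 CPM in the larger barcodes.

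Mitochondrially encoded genes had a negative median in metformin over healthy, -0.70, while 1 of 13 was past 2-fold lower and 0 were higher, a share near that of all genes. The oxidase subunit mt-Co1 was at 2629.8 CPM in metformin and 4458 CPM in healthy members, and at 4449.6 and 7016 CPM in the larger barcodes. Of the 36 nuclear genes of oxidative phosphorylation 1 was higher and 0 were lower, with a median of 0.18. Immediate-early genes, which are induced within minutes of a stimulus, tissue digestion included, had 0 of 16 higher and 6 lower with a median of -0.81. That median was -0.25 without members under 1% Smgc plus Tff2 and 0.43 in the larger barcodes. Ltf, the iron-binding protein lactoferrin, was at 496 CPM in metformin and 1538 CPM in healthy members (-1.63, -1.87 to -1.40), from 131 metformin and 10 healthy members. Its ratio was 1.49 without the members under 1% Smgc plus Tff2 and -2.78 in the larger barcodes. Plcb1, a phospholipase of receptor signalling, was at 165 CPM in metformin and 514 CPM in healthy members (-1.64, -2.05 to -1.23), and its ratio was -1.25 in the larger barcodes. Sparcl1, Ly6c1, Cav1 and Vim, genes of endothelial and mesenchymal cells, were at ratios between -3.19 and -1.72, where the endothelial list summed to 99.96 CPM in metformin and 469.7 CPM in healthy members.

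**Figure D4:**
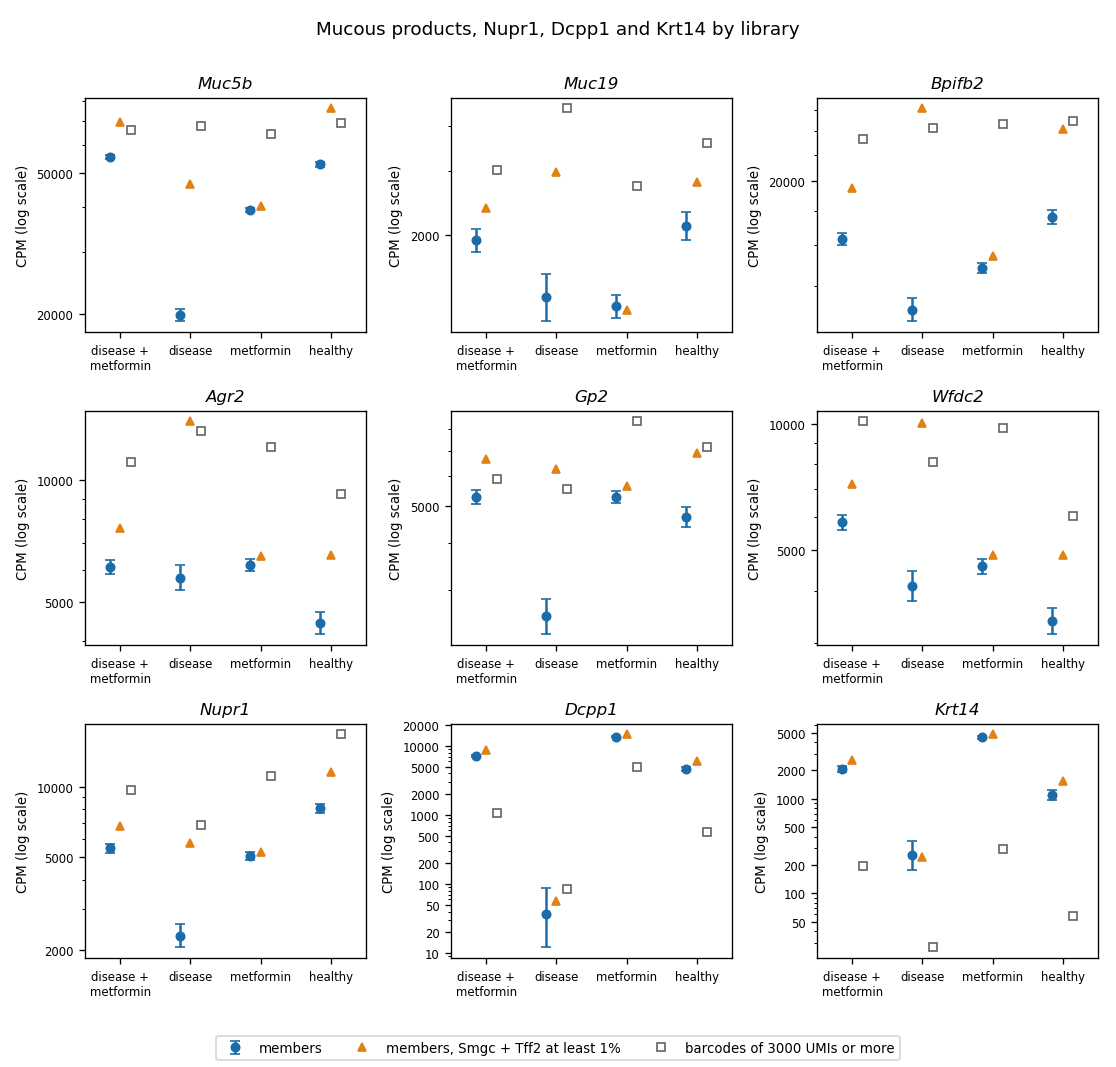
Level of 6 mucous products, Nupr1, Dcpp1 and Krt14 in CPM on a log scale, by library, in members (circles, exact Poisson 95% interval), members with at least 1% Smgc plus Tff2 (triangles) and barcodes of 3000 UMIs or more (squares). Muc5b is lowest in disease members (19857 CPM) but lies between 64519.9 and 69433 CPM in all libraries in the larger barcodes. Dcpp1 is lowest in disease in all 3 sets.

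For disease plus metformin over disease, several gland RNAs had another ratio over all members than over those with at least 1% Smgc plus Tff2. Over all members, Muc5b was at 55629.9 CPM in disease plus metformin and 19857 CPM in disease members (log2 ratio 1.49, 1.43 to 1.54), Nupr1 at 5447 and 2307 CPM (1.24, 1.07 to 1.42) and Gp2 at 5290.5 and 2560.5 CPM (1.05, 0.88 to 1.22). Without members under 1% Smgc plus Tff2 these ratios were 0.58, 0.25 and 0.087. Other mucous RNAs then had the other sign: Tff2 was at -0.49 (0.47 over all members), Bpifb2 at -0.51 (0.46) and Wfdc2 at -0.48 (0.50), and Agr2 was at -0.87 (0.087). Smgc and Olfm4 stayed higher, at 0.95 and 1.42. The larger barcodes had -0.05 for Muc5b, 0.49 for Nupr1 and 0.09 for Gp2, so that of these 3 genes only Nupr1 differed there by more than 0.1. Ly6e, a surface protein induced by interferon and retinoids, was at 1165 CPM in disease plus metformin and 381 CPM in disease members (1.61, 1.19 to 2.06), and at 1156 and 258 CPM in the larger barcodes. Spdef was at 192 CPM in disease plus metformin and 67.2 CPM in disease members (1.51, 0.51 to 2.69), and its ratio was -0.11 in the larger barcodes. Krt18, a keratin of simple and gland epithelium, was at 689 CPM in disease plus metformin and 246 CPM in disease members (1.48, 0.96 to 2.05), against 0.29 in the larger barcodes.

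Among 3328 genes measured, 7.9% were at least 2-fold higher and 14.9% at least 2-fold lower in disease plus metformin than in disease members, with a median of -0.15. Class markers had 3 of 6 higher and 0 lower, with a median of 0.80 that was -0.19 without members under 1%. Mucous secretion genes had 3 of 13 higher, Muc5b, Fcgbp and Spdef, and 1 lower. Their median was 0.46, and it was -0.42 without members under 1% Smgc plus Tff2. Mucin glycosylation genes had 5 of 18 higher and 1 lower, the higher ones including the sialic acid enzymes Cmas and Nans at 1.38 and 1.10. Their median of 0.75 was 0.18 without members under 1% and -0.17 in the larger barcodes. Serous genes had 5 of 7 higher and 1 lower, with Dcpp1 at 7192 CPM in disease plus metformin and 37.3 CPM in disease members (7.59, 6.37 to 9.21).

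Genes of other cell types lay on both sides. Keratinocyte genes had 8 of 14 higher and 2 lower, with Krt14 at 2075 CPM in disease plus metformin and 254 CPM in disease members (3.03, 2.54 to 3.57) and Krt5 at 679 and 127 CPM (2.42). The list's median was 1.42, while its summed level was 8219 CPM in disease plus metformin and 8891 CPM in disease members. Endothelial markers had 0 of 9 higher and 8 lower, summing to 348 CPM in disease plus metformin and 1702 CPM in disease members, and NF-kB targets had 0 of 7 higher and 5 lower, with a median of -2.58 that became 0.55 in the larger barcodes. The 6 lowest genes were Fxyd5, Sparcl1, Vim, Ramp2, Mcl1 and Sparc, between -3.56 and -2.40. Immediate-early genes had 0 of 17 higher and 7 lower with a median of -0.90, against 0.74 without members under 1% Smgc plus Tff2 and 0.93 in the larger barcodes.

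Disease plus metformin over metformin compared the 2 sets with most members, 384 and 573. Of 4957 genes measured, 4.62% were at least 2-fold higher and 6.52% at least 2-fold lower, with a median of -0.02. Class markers had 2 of 6 higher, Smgc and Olfm4, and 0 lower. Tff2 was at 70402 CPM in disease plus metformin and 39548 CPM in metformin members (0.83, 0.81 to 0.86), and at 98204 and 65142 CPM in the larger barcodes. Wfdc12 was at 2267 CPM in disease plus metformin and 1005 CPM in metformin members (1.17, 1.02 to 1.33), and its ratio was 0.28 in the larger barcodes. Lrg1, a secreted leucine-rich glycoprotein, was at 333 CPM in disease plus metformin and 92.7 CPM in metformin members (1.85, 1.37 to 2.34) and had a ratio of 0.95 in the larger barcodes. H2-D1, a class I heavy chain, was at 662 CPM in disease plus metformin and 267 CPM in metformin members (1.31, 1.01 to 1.61), with 0.94 in the larger barcodes. Class I presentation genes had 4 of 8 higher and 0 lower in members, but 0 of 11 higher or lower in the larger barcodes.

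Keratins and serous products were on the low side of this comparison. Keratinocyte genes had 0 of 17 higher and 10 lower, with Krt6b at 39.8 CPM in disease plus metformin and 175 CPM in metformin members (-2.13), against 0.89 in the larger barcodes. Serous genes had 1 of 9 higher and 5 lower, with Dcpp1 at 7192 and 13545 CPM (-0.91), Sbpl at 82.1 and 1050.4 CPM (-3.68) and Bpifa2 at 4.98 and 83.6 CPM (-4.07, -7.16 to -2.14, from 2 UMIs in disease plus metformin). Cdk8, Gphn and Cmss1, which were higher in the members of all libraries together than in the larger barcodes, were at -1.11, -1.06 and -0.82, against 0.08, 0.23 and 0.28 in the larger barcodes. Genes of the secretory pathway had 0 of 38 higher or lower with a median of 0.16, and chaperones of the endoplasmic reticulum 0 of 22 with a median of 0.00.

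**Figure D5:**
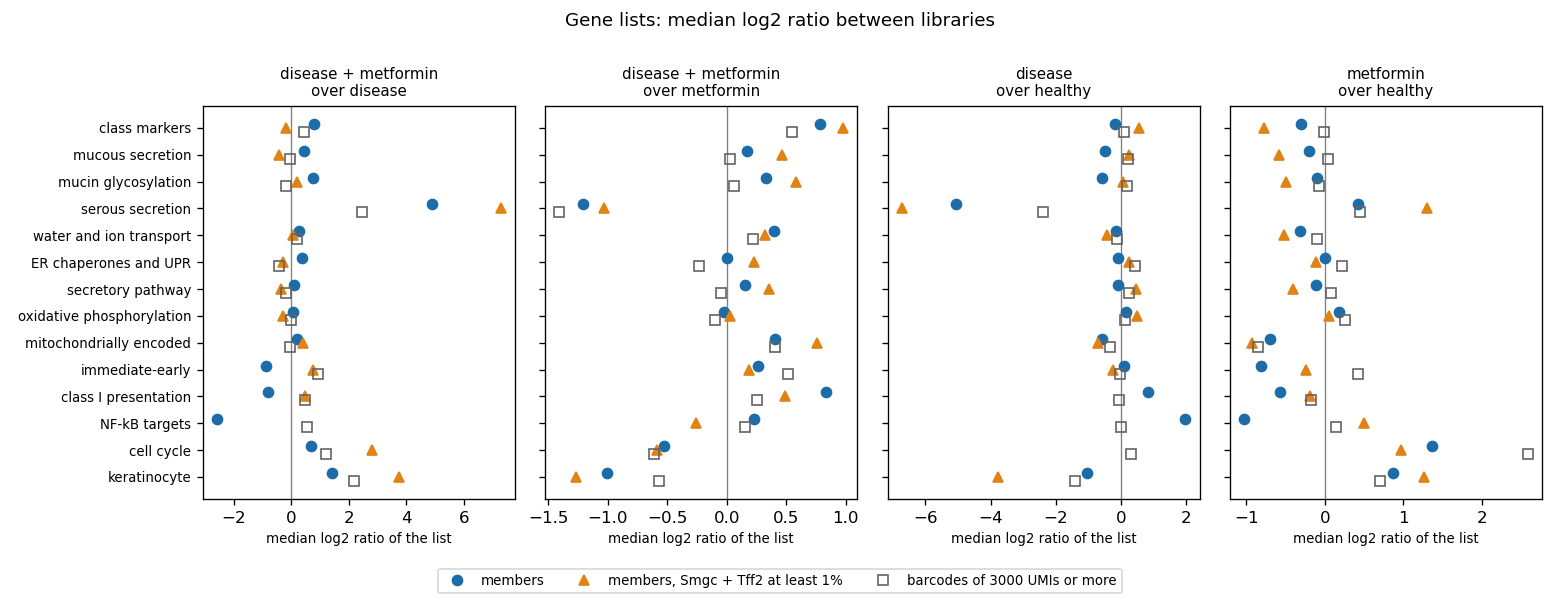
Median log2 ratio of 14 gene lists in each of 4 comparisons, in members (circles), members with at least 1% Smgc plus Tff2 (triangles) and barcodes of 3000 UMIs or more (squares). A list with fewer than 3 measured genes has no symbol. The serous list lies far to the right for disease plus metformin over disease (4.91 in members) and far to the left for disease over healthy (-5.05).

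Nuclear and mitochondrially encoded genes of energy metabolism had different medians. The 36 nuclear genes of oxidative phosphorylation had medians of 0.15, 0.18, 0.04 and -0.03 for disease over healthy, metformin over healthy, disease plus metformin over disease and disease plus metformin over metformin. The 12 or 13 measured mitochondrially encoded genes had medians of -0.58, -0.70, 0.18 and 0.41 in the same order, with 1 gene in all past 2-fold. AMPK and lipid synthesis genes, which are near the known action of metformin, had medians of 0.36, 0.22, -0.22 and 0.04 over 4, 13, 7 and 13 measured genes, and that of disease plus metformin over disease was -0.75 over 4 genes without members under 1% Smgc plus Tff2. Glycolysis genes had medians of 0.17, 0.01, -0.06 and -0.03.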

How the data were processed

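The 4 libraries, 1 per group, hold single-cell RNA data of mouse gingiva. Per the submitters' processing notes, the authors used bcl2fastq and Cell Ranger 7.0.1 with build mm10. The authors deposited unnormalized counts (UMIs for each of 32285 genes in every barcode). Genes under a shared symbol were summed. Library totals ran from 12507787 to 22333858 UMIs, and the lowest barcode held 500. Members were selected by the rule in the opening. Their UMIs were summed per library and given as CPM with exact Poisson intervals. Ratios have conditional exact binomial intervals, and shares have Clopper-Pearson intervals, all at 95%. A gene was measured with at least 20 UMIs over both libraries, a call was a 2-fold difference, and a count of 0 was set to 3 UMIs for a bound. Thinning drew 500 UMIs per barcode. Squamous keratins were Krt1, Krt4, Krt5, Krt6a, Krt10, Krt13, Krt14 and Krt76.

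The members, the 29 gene lists and the comparisons were chosen with earlier results of these data known. Named genes were the class markers, the leading genes of the profile, the 6 highest and 6 lowest per comparison by the interval bound nearest 0 (at least 50 UMIs, no barcode with over 20% of them, at least 10 members with a UMI, a level no lower than over all kept barcodes), and up to 4 genes per list. Not every gene this rule named is reported here. The genes given from lists beyond these, and the members holding S100a9, Cxcl2 and Il1b, were chosen after their values were seen. The intervals were checked on simulated counts and held the set value for 96.9% of 2381 unaltered genes in disease over healthy. The lowest value was 92.1%, for 63 genes set 2-fold lower in metformin over healthy. The counts were drawn independently, as the intervals assume, so the check does not cover UMIs that come from few members. Alternatives were other limits of the rule, other minima of UMIs, thinning, equal weights for members, and, added after seeing the data, a minimum share of 1% Smgc plus Tff2, larger barcodes in place of members, and levels per UMI of mucous products. Python 3.11.15, numpy 2.4.6, pandas 2.3.3, scipy 1.17.1 and matplotlib 3.10.9 were used.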

Additional observations from a re-analysis of the deposited data

Results flagged for a closer look

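For the 6 genes flagged here, the metformin effect over all members pointed one way in diseased and the other way in healthy gingiva. Among the genes followed in every comparison, Muc19 and Bpifb2 did so too, with intervals clear of 0, but were not flagged. For disease plus metformin over disease and metformin over healthy, Muc19 was at 0.52 and -0.73, and Bpifb2 at 0.46 and -0.33. None of the differences was tested, since each group has 1 library. The log2 ratio of disease plus metformin over disease minus that of metformin over healthy was 3.04 for Smgc (1.90 and -1.14), 5.09 for Ltf (3.46 and -1.63, the first with an interval of 1.55 to 6.53 from 2 UMIs in disease), 2.01 for Lrrc26 (1.14 and -0.87), 1.91 for Nupr1 (1.24 and -0.67), 1.91 for Muc5b (1.49 and -0.42) and 0.94 for Tff2 (0.47 and -0.47). Each of these differences but that of Ltf is also a disease effect with opposite directions with and without metformin: disease plus metformin over metformin was 1.70 for Smgc, 0.73 for Lrrc26, 0.11 for Nupr1, 0.50 for Muc5b and 0.83 for Tff2, against -1.34, -1.28, -1.81, -1.41 and -0.11 for disease over healthy. In the larger barcodes the metformin effects were 1.58 and -1.37 for Smgc, 0.68 and -0.10 for Lrrc26, 0.49 and -0.59 for Nupr1, 0.21 and -0.38 for Tff2, and -0.046 and -0.11 for Muc5b, whose effects there shared 1 direction. Without members under 1% Smgc plus Tff2, those of Tff2 also shared 1 direction, at -0.49 and -0.94, as did its disease effects, at 1.04 and 0.59. Lrrc26 was then at 0.11 (-0.51 to 0.78) and -1.31. The metformin over healthy ratio of Ltf was then 1.49. It was 0.13 with at least 5 Smgc plus Tff2 UMIs, but stayed negative in the larger barcodes.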

How the results depend on the processing

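No paired analysis was possible because each group has 1 library, and for the same reason no comparison was made without a library. Leaving each library out of the pooled levels of 15 leading genes moved them by less than the SD between libraries, but Dcpp1 was at 5159.7 CPM without metformin and 8677 CPM with it. Reversed here means another sign of a share ratio whose interval leaves out 0, or of a list median, or a gene ratio whose interval leaves out 0, that was at least 2-fold over all members. Of share ratios under other settings, 24 kept within their interval, 11 moved and 1 reversed. Of list medians 940 kept, 90 moved and 12 reversed, and of gene ratios 761 kept, 591 moved and 25 reversed. Sign changes of any size were counted as well. At 1% Smgc plus Tff2, 9 of 65 ratios of the genes followed in every comparison, with both intervals clear of 0, and 24 of 85 list medians had the other sign, and in the larger barcodes 15 of 75 and 38 of 104. Among them at 1% were Tff2 0.59, Bpifb2 0.13 and Krt13 -4.76 for disease over healthy, and Tff2 -0.49, Bpifb2 -0.51, Wfdc2 -0.48 and Muc19 -0.33 for disease plus metformin over disease. Among them in the larger barcodes were Muc19 0.31 and Krt13 -1.41 for disease over healthy, Gm42418 -1.01 for metformin over healthy, Muc19 -0.56 and Bpifb2 -0.068 for disease plus metformin over disease, and Gm42418 0.50 for disease plus metformin over metformin. Outside these genes, Cmss1 changed sign to 0.28 in that last comparison. Beyond the construction of each setting the cause was not tested.

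With a minimum of 1% Smgc plus Tff2, a setting added after seeing the data, share ratios were -1.94 for disease over healthy, 0.91 for metformin over healthy and 2.70 for disease plus metformin over disease. Genes 2-fold higher and lower were 100 and 113 for disease over healthy and 449 and 194 for metformin over healthy, with 145 lower for disease plus metformin over disease and 137 higher for disease plus metformin over metformin. The mucous secretion median for disease plus metformin over disease was -0.42. Reversed ratios past 2-fold for disease over healthy were Vim -1.11 and Mcl1 -2.11. For metformin over healthy they were Vim 0.50, Ltf 1.49 and the NF-kB list 0.50. For disease plus metformin over disease they were Vim 0.42, Mcl1 1.23 and Krt13 1.65.

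In barcodes of 3000 UMIs or more, also added later, reversed values past 2-fold for disease over healthy were the myoepithelial list -0.043, the fibroblast list 2.94 and Mcl1 -0.024. For metformin over healthy they were the endothelial list 1.00, the fibroblast list 1.27, the NF-kB list 0.14, Vim 0.32, Cav1 0.98, Krt13 0.36 and Krt4 0.12. For disease plus metformin over disease they were the NF-kB list 0.55, Mcl1 0.28, Muc5b -0.046 and Spdef -0.11, and for disease plus metformin over metformin the leukocyte list -0.089, Cdk8 0.077, Gphn 0.23 and Krt6b 0.89.

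With at least 5 Smgc plus Tff2 UMIs, share ratios were -1.75 for disease over healthy and 2.44 for disease plus metformin over disease. Counts were 119 higher and 122 lower, 274 lower for disease plus metformin over disease and 136 higher for disease plus metformin over metformin. Fxyd5 reversed to -1.97 for disease over healthy and 0.61 for disease plus metformin over disease, and for metformin over healthy the NF-kB list was 0.25 and Ltf 0.13. With only members without squamous keratin UMIs counted, over all kept barcodes, share ratios were -0.44, -1.38, 1.497 and 2.44. These are for disease over healthy, metformin over healthy, disease plus metformin over disease and disease plus metformin over metformin. Counts higher and lower were 175 and 106, 60 and 43, 130 and 261, and 130 and 126 in that order. For metformin over healthy the fibroblast list was then 1.16, Vim 0.12, Sparcl1 2.32, Cav1 0.74 and Ly6c1 0.32. Thinned to 500 UMIs, share ratios were -1.73 for disease over healthy and 2.38 for disease plus metformin over disease. With Malat1 and mitochondrial UMIs required of the members only, that of disease plus metformin over metformin was -0.21.

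Counts higher and lower, in the same order of comparisons, were 3452 and 3552, 3369 and 3518, 3760 and 3902, and 2898 and 3266 with a minimum of 1 UMI, and 61 and 56, 56 and 79, 64 and 119, and 45 and 77 with a minimum of 50. With an upper limit of 2000 UMIs they were 137 and 92 for disease over healthy, 169 lower for metformin over healthy with an NF-kB list of 0.53, 252 lower for disease plus metformin over disease and 147 higher for disease plus metformin over metformin. With equal weights 441 were higher for metformin over healthy and 512 lower for disease plus metformin over metformin. At 10% mitochondrial UMIs the fibroblast list for disease over healthy was 0.39. Depth limits most genes, since 107 disease members hold 133958 UMIs.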
